A study of Mus musculus with 4 samples.

Results

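The postsynaptic scaffold genes described here are the 4 Dlg genes (Dlg1 to Dlg4), the 3 Shank genes (Shank1 to Shank3) and the 3 Homer genes (Homer1 to Homer3). They are 10 of the 21938 protein-coding genes of the mouse GENCODE M21 annotation and were taken by name. No measured value entered that rule, but the genes were chosen with earlier results of these data known. The measured mark was histone H3 trimethylated at lysine 4 (H3K4me3), which lies at active and poised promoters, profiled by chromatin immunoprecipitation and sequencing of hippocampus. The mice were adult B6CASTF1/J males aged 2 months, a hybrid of a laboratory strain and a wild-derived strain. The libraries came from pool C and pool D, each made of 7 tissue samples and sequenced as 2 technical replicates. Pooling hides the spread among animals. Both pools had the same strain, sex, age and tissue, and no treatment or other genotype was named. The label "layer of hippocampus" does not say which layer.

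The postsynaptic density is the protein mesh beneath the membrane of an excitatory synapse, and these genes encode its scaffold. Dlg proteins lie closest to the membrane and hold glutamate receptors through their PDZ domains. Dlg4 encodes the scaffold called PSD-95 in textbooks. Shank proteins form the deeper layer and are tied to the Dlg proteins through the Dlgap proteins. Homer proteins bind Shank proteins and group I metabotropic glutamate receptors, and a short Homer1 product induced by neuronal activity lacks the coiled coil through which the long forms assemble.

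The authors deposited a list of replicated peaks (27063 peaks), which is the list meant unless another is named, and a separate list for pool C (34193 peaks) and for pool D (24690 peaks). The lists give no read counts, so depth is unknown and no test between the pools was made. Both technical replicates of a pool fed 1 list, so each pool gave 1 value, and a mean ± SD below is over the 2 pools. In such bulk tissue, fewer cells of a type and less mark per cell cannot be told apart. The tissue label was set against marker genes. All 7 genes of hippocampal and excitatory neurons carried the mark in both pools, and none of 4 genes of other tissues (Alb, Hoxa10, Acta1 and Krt5) did in either pool. In the replicated list all markers of astrocytes, oligodendrocytes, interneurons and endothelium were also marked, and so they were in pool C, while in pool D the interneuron gene Slc32a1 and the oligodendrocyte gene Mog had no peak. All 3 microglia markers had a peak in pool C and none had one in pool D, while all 10 scaffold genes were marked in both pools. In the replicated list the microglia markers Cx3cr1 and Aif1 had no peak and P2ry12 had one. For scale, 65.5% of all protein-coding genes were marked in that list by the rule given below. The part of cell makeup in the values below was not tested.

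All 10 scaffold genes carried H3K4me3 in the replicated list, in pool C and in pool D. A gene counted as marked if any of its annotated transcription start sites had a peak within 1 kb, by at least 1 bp of overlap. By this rule 65.5% of all protein-coding genes were marked in the replicated list, 66.9% in pool C and 64.3% in pool D. Peaks within 1 kb of each other were joined into domains, and breadth is the length of a domain. The broadest domain of the 10 genes had a median of 3605 bp, against 2234 bp over all 14369 marked genes. It was above that median at 8 of the 10 genes and below it at Shank1 and Homer3. Shank1 was above the median of all marked genes in both pools, with 2826 against 2400 bp in pool C and 2342 against 2034 bp in pool D. With no gap closed the median over all marked genes was 2082 bp in the replicated list. Shank1 (2133 bp) then lay above it, and Homer2 (1777 bp) and Homer3 (1848 bp) lay below. Domains of at least 5 kb were found at 3 of the 10 genes (Dlg4, Homer1 and Shank2), against 6.96% of all marked genes. The same 3 genes passed 5 kb in pool C (9.46% of all marked genes) and in pool D (4.76%). With no gap closed, the broadest Dlg4 peak measured 4716 bp and fell short of 5 kb. Breadth and marking were taken over all start sites of a gene, and their number was not allowed for. With the gene's 5′ end as sole start site, 8 of the 10 genes were marked and their median breadth was 2554.5 bp. A background for that setting is not given here.

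In descending order the broadest domains measured 12349 bp at Dlg4, 7193 bp at Homer1 and 5691 bp at Shank2. Those 3 genes stood clear of each other and of the rest in both pools. Next came Dlg2 (3905 bp), Dlg1 (3668 bp) and Dlg3 (3542 bp), whose pool values overlapped. Shank3 followed at 3100 bp and overlapped only Dlg1 of these 3. Homer2 (2447 bp) and Shank1 (2133 bp) had no stable order: Shank1 was the broader in pool C (2826 against 2464 bp) and in pool D (2342 against 2073 bp). Among the 10 genes Homer3 was lowest at 1848 bp with no overlap. Each family thus held a gene with a domain of at least 5 kb and others near or below 4 kb.

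**Figure D1:**
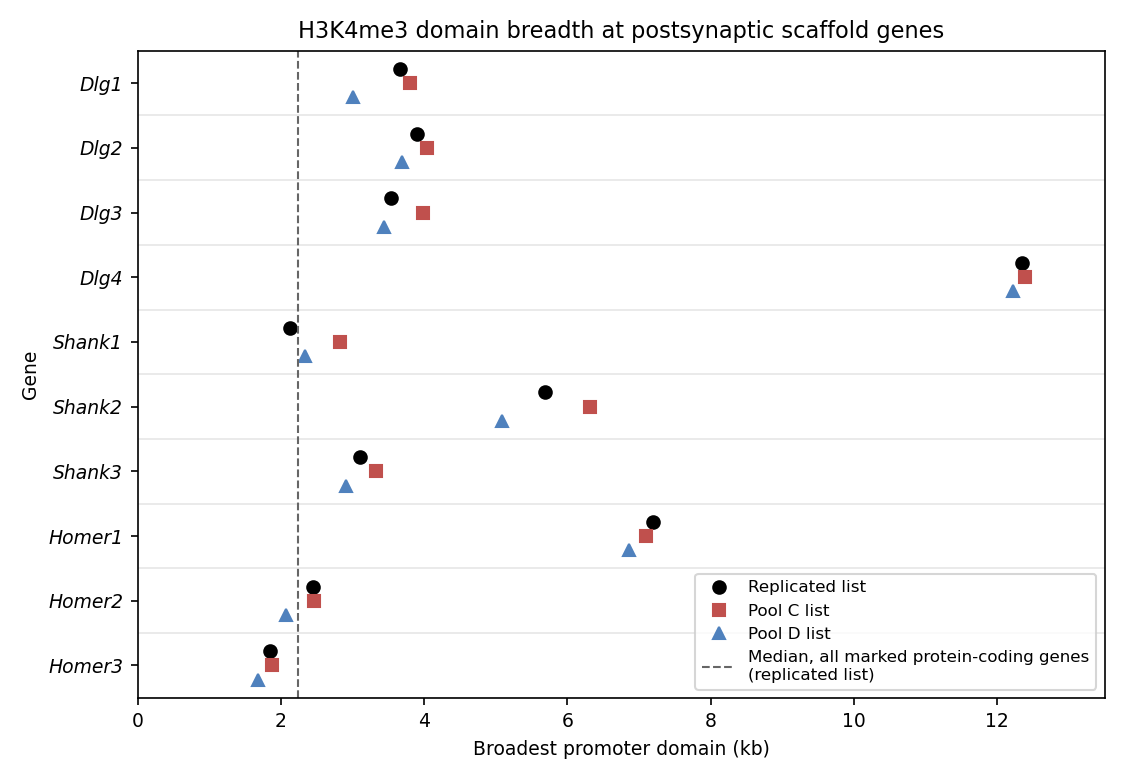
Broadest H3K4me3 promoter domain (kb, horizontal axis) of each scaffold gene (vertical axis) in the replicated list (circles), the pool C list (squares) and the pool D list (triangles); each point is 1 list, and the dashed line is the median of 2234 bp over all marked protein-coding genes in the replicated list. Dlg4 lies near 12 kb in all 3 lists, Homer1 near 7 kb and Homer3 below 2 kb.

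Dlg4, which encodes the most studied scaffold of the excitatory postsynaptic density, had 1 domain that ran over the first part of the gene (chromosome 11, 70017713 to 70030061). It was broader than 99.8% of the domains of all marked genes. The domain measured 12380 bp in pool C and 12220 bp in pool D (12300 ± 113 bp, SD, n = 2), so the joined breadths of the pools differed by 1.01 times. Without the closed gaps, its peaks covered 11422 bp in pool C and 9694 bp in pool D. The domain consisted of 4 peaks in the replicated list and in pool C, and of 6 in pool D, where the last 2 peaks of the replicated list were each split. In the replicated list their widths were 4716, 1922, 2463 and 1842 bp in the direction of transcription. The authors' signal value, an enrichment on the scale of their caller that is comparable only within 1 list, was 22.4, 12.6, 6.64 and 4.73 in the same order. The signal was thus highest at the first peak and lower at each following one in the replicated list and in pool C. In pool D the first 2 peaks had 17.9 and 9.22 and the others 2.94, 5.52, 5.03 and 3.87, so that the decline was not even there.

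Start sites of Dlg4 were spread along this domain. The gene has 20 annotated start sites in 6 clusters, where a cluster joins start sites of 1 gene within 1 kb of each other, and 5 clusters met the domain. The most upstream cluster lay outside it: the domain began 771 bp downstream of the first start site. The strongest peak had its summit 480 bp downstream of the first start site of the second cluster, from which 5 coding transcripts start. The clusters at 7.0, 9.9 and 12.5 kb fell in successive later peaks, and the last cluster, of a single non-coding transcript at 27.3 kb, had no peak. No start site of another gene lay in the domain. The breadth depends on joining: with no gap closed the broadest Dlg4 peak measured 4716 bp, above 94.9% of marked genes taken the same way (median 2082 bp).

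**Figure D2:**
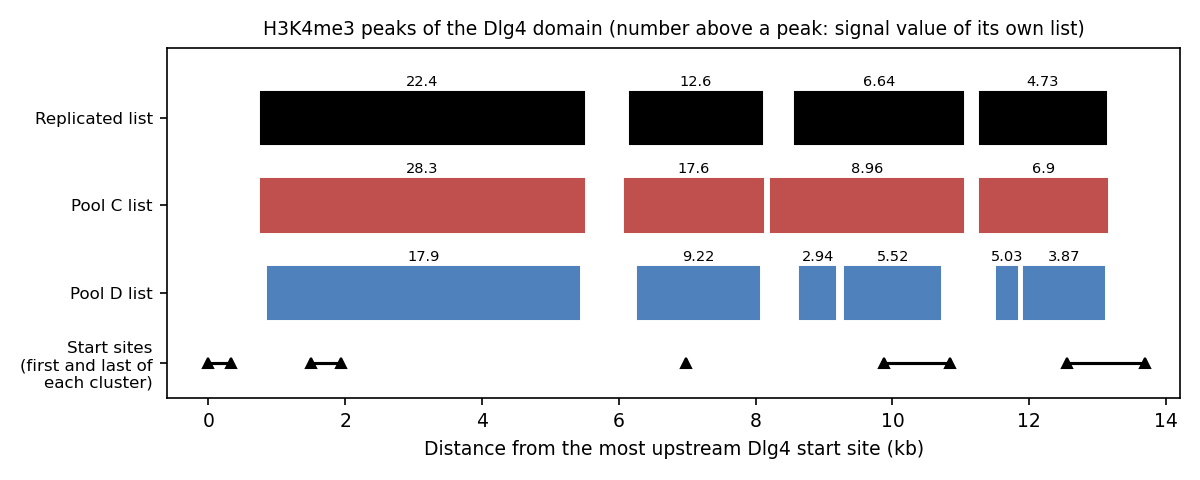
H3K4me3 peaks of the Dlg4 domain by distance from its most upstream start site (kb, horizontal axis) in the replicated, pool C and pool D lists (rows), with the signal value of each peak above it and the first and last start site of each of the 5 marked clusters as triangles in the bottom row. The first peak is the widest and has the highest signal in each list (22.4, 28.3 and 17.9).

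Dlg2, which encodes a close relative of the Dlg4 protein and spans 1972576 bp of chromosome 7, carried the mark at 6 separate places. Of its 8 start-site clusters 6 were marked in the replicated list and the same 6 in each pool. Only 0.0418% of all marked genes (6 of 14369) had at least 6 separate domains, and among the 59 marked genes of at least 1000 kb 2 did, with a median of 2 domains. The domains lay at 0, 614.0, 1195.8, 1234.7, 1704.0 and 1758.3 kb from the most upstream start site and measured 2662, 3905, 2090, 1692, 837 and 1934 bp. The broadest was thus not at the gene's 5′ end but at an internal cluster with 2 coding transcripts (chromosome 7, 91089267 to 91093171). It measured 4042 bp in pool C and 3685 bp in pool D (3863.5 ± 252 bp, SD, n = 2). The most upstream domain was shared: it also held the start sites of Tmem126b, which encodes an assembly factor of mitochondrial complex I and is read in the opposite direction. The summit there lay 863 bp from the nearest Dlg2 start site and 186 bp from the nearest Tmem126b start site.

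The other internal Dlg2 domains were weaker. By signal value the domain at 614.0 kb ranked above 64.9% of all replicated peaks, and those at 1195.8, 1234.7, 1704.0 and 1758.3 kb above 44.0%, 29.0%, 30.4% and 47.7%. At 1234.7 kb the peaks began 90 bp downstream of the start site and did not cover it. The coding start site at 1585.7 kb and the non-coding one at 1951.0 kb had no peak in any of the 3 lists. The RefSeq promoter windows (250 bases before to 50 after a start site, build GRCm38.p6) of a marked and an unmarked internal Dlg2 start are printed to show the pair, 5′ to 3′ with CpG dinucleotides in capitals; the first is chr7:91090536-91090835, the second chr7:92062144-92062443, both on the plus strand.
Dlg2 marked internal start: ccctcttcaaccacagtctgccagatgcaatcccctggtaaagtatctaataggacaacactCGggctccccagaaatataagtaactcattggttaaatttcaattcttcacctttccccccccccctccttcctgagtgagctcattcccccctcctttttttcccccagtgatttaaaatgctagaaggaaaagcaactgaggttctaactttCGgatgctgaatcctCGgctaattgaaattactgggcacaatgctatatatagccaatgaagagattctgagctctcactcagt
Dlg2 unmarked internal start: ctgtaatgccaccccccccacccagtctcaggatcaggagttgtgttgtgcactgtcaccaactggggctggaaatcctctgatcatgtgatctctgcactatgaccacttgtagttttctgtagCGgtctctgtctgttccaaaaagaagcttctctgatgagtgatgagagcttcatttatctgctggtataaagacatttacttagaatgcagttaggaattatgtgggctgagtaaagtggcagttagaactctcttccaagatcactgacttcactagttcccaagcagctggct
The marked window holds 3 CpG dinucleotides and the unmarked one 1, against a median of 7 over 32851 RefSeq promoter windows, so that neither is CpG-rich.

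Dlg1 and Dlg3 were also marked at more than 1 start site. Dlg1, whose product is a scaffold of synapses and of epithelial junctions, had its broadest domain at a single coding start site 90.9 kb inside the gene (chromosome 16, 31754040 to 31757707). This internal domain measured 3668 bp, with 3806 bp in pool C and 3003 bp in pool D (3404.5 ± 568 bp, SD, n = 2). The domain at the most upstream cluster was narrower, at 2040 bp, but had the higher signal: 24.6 against 13.1 in the replicated list, 25.9 against 16.1 in pool C and 23.7 against 8 in pool D. The other 8 Dlg1 clusters were unmarked in all 3 lists, and 7 of these 8 have no coding transcript. Dlg3, the X-linked member of the family, had domains at 0, 7.0 and 9.6 kb of 3542, 552 and 966 bp. The first (chromosome X, 100766968 to 100770509) measured 3979 bp in pool C and 3435 bp in pool D (3707 ± 385 bp, SD, n = 2), and the internal ones recurred in both pools.

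In the Shank family the mark was not always at the annotated 5′ end. Shank2, a scaffold that links receptor complexes to the actin cytoskeleton, had no peak at its first 2 start-site clusters (0 and 29.3 kb) in any list, although both have a coding transcript. It was marked at 173.6 kb (chromosome 7, 144174792 to 144177334, 2543 bp) and at 282.5 kb (chromosome 7, 144283508 to 144289198, 5691 bp). The broader internal domain was above 95.5% of all marked genes and measured 6311 bp in pool C and 5081 bp in pool D (5696 ± 870 bp, SD, n = 2). From its first start site it reached 931 bp upstream and 4759 bp downstream. The last cluster, at 415.9 kb, had peaks spanning 1054 bp in pool C and none in pool D or the replicated list.

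Shank3 had 3 domains, at 0, 24.1 and 33.3 kb, of 3100, 1742 and 2152 bp, and all 3 recurred in both pools. Their signal values were 23.4, 9.98 and 13.6 in the replicated list, so the most upstream was highest, and the same held in pool C (27.7, 13.4 and 17.4) and in pool D (20.2, 8.25 and 10.3). The domain at 24.1 kb also held the start site of Gm15609, a long non-coding RNA on the other strand, and consisted of 2 peaks of like signal. The summit of the peak with 9.98 lay 8 bp from a Shank3 start site and 653 bp from that of Gm15609, and the summit of the peak with 9.46 lay 201 bp from a Shank3 start site and 117 bp from that of Gm15609. Shank1 had 2 domains, at its most upstream start site (chromosome 7, 44310182 to 44312314, 2133 bp) and at 25.8 kb (chromosome 7, 44336058 to 44338091, 2034 bp). In both pools the internal Shank1 domain was the broader, at 2826 bp in pool C and 2342 bp in pool D (2584 ± 342 bp, SD, n = 2), against 2420 and 2051 bp for the upstream domain in the same order. A weak peak of 335 bp at 40.5 kb was found in pool C alone.

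Homer1 had the highest signal of the 10 genes in the replicated list and in pool D (in pool C Homer1 had 28.9, and Homer3 with 31 and Shank1 with 29.2 were higher) and the broadest domain of its family. Its first annotated start site, of a single non-coding transcript, had no peak. The mark lay at the cluster 4.1 kb further on, from which 10 coding transcripts start. The domain (chromosome 13, 93302793 to 93309985) was a single peak of 7193 bp, broader than 98.3% of all marked genes, with a signal value of 28.7 that exceeded 91.7% of replicated peaks. It measured 7103 bp in pool C and 6856 bp in pool D (6979.5 ± 175 bp, SD, n = 2). From the first coding start site it reached 964 bp upstream and 6228 bp downstream. It thus covered a further coding start site, which lies 8.4 kb from the first annotated start site of the gene. The Homer1 window at that first coding start site (chr13:93303507-93303806, plus strand, GRCm38.p6) is printed because it held 3 copies of TGACG, the core of the cAMP response element, searched on both strands and shown in capitals.
Homer1: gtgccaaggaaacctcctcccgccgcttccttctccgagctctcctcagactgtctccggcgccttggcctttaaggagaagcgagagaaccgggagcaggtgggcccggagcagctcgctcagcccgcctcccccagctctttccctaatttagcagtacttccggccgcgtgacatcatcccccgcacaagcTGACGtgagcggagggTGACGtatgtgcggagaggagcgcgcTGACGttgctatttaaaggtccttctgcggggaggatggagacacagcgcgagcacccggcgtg
At least 1 copy stood in 3 of the 18 windows of the scaffold genes (16.7%), against 20.8% of the 32851 RefSeq windows. At least 3 copies stood in 1 of the 18, the Homer1 window printed here, and in 1.03% of all windows. The full element TGACGTCA stood in none of the 18 windows of the scaffold genes and in 1.79% of all windows. A match describes these letters and not a bound site.

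Homer2 and Homer3 were marked at their most upstream cluster alone. Homer2, on the minus strand, had a domain of 2447 bp in 2 peaks (chromosome 7, 81705129 to 81707575), with 2464 bp in pool C and 2073 bp in pool D (2268.5 ± 276 bp, SD, n = 2). Its second cluster, 14.6 kb inside the gene and with 2 coding transcripts, had no peak in any of the 3 lists. Both Homer2 windows are printed to show this contrast, on the minus strand of GRCm38.p6 with CpG dinucleotides in capitals; the first is chr7:81706876-81707175, the second chr7:81692916-81693215.
Homer2 marked start: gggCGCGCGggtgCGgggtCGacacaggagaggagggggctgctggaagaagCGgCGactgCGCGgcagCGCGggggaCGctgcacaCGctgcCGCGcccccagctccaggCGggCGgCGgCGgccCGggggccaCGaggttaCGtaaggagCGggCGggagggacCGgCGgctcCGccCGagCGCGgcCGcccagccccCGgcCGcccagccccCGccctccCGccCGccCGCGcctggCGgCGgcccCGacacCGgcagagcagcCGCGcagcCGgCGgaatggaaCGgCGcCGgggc
Homer2 unmarked start: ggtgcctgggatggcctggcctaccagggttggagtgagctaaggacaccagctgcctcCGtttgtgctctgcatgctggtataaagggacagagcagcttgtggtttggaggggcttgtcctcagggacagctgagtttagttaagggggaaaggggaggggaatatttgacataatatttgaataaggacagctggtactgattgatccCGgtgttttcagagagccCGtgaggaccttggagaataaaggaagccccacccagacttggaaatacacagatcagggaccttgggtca
The marked Homer2 window holds 49 CpG dinucleotides and the unmarked one 3. Homer3 had a domain of 1848 bp (chromosome 8, 70282205 to 70284052), narrower than the median gene, with 1875 bp in pool C and 1681 bp in pool D (1778 ± 137 bp, SD, n = 2). Its signal of 23.6 exceeded 78.6% of replicated peaks, which include peaks away from promoters. It was near 22.5, the median over all marked genes of the strongest signal of a gene. The other 3 Homer3 clusters, 2 of them with a coding transcript, were unmarked. Over the 10 scaffold genes the median strongest signal was also 22.5. In pool C it was 27.3 against 27.9 over all marked genes, and in pool D 18.1 against 18.2.

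Of the 54 start-site clusters of the scaffold genes, 29 were marked in the replicated list (background over all protein-coding genes 36.8%), 31 in pool C (38.5%) and 29 in pool D (35.4%). Internal clusters were marked at 21 of 44 (background 15.9%). The most upstream cluster was marked at 8 of the 10 genes, all but Shank2 and Homer1, in the replicated list (background 62.1%), in pool C (63.4%) and in pool D (60.7%). The cluster backgrounds in this paragraph include genes without the mark, whereas all 10 scaffold genes were marked. In the replicated list 13615 of the 14369 marked genes had a marked most upstream cluster, a larger share than 8 of 10. Internal clusters with a coding transcript were marked at 15 of 21 (background 26.6%), and also at 15 in pool C (29.0%) and in pool D (25.0%). Those with only non-coding transcripts were marked at 6 of 23 (background 8.44%), with 8 in pool C (10.4%) and 6 in pool D (7.11%). Of the 21 marked internal clusters, 6 shared the domain of the most upstream cluster (4 at Dlg4, 1 at Shank1 and 1 at Shank3). The other 15 lay in 14 separate domains, 5 of them at Dlg2. At 5 of the 29 marked clusters the peak lay within 1 kb but covered no start site, and these were found at Dlg2, Dlg4, Shank1 (2 of them) and Shank3. At least 2 separate domains were found at 6 of the 10 genes (background 9.88%) and at least 3 at Dlg2, Dlg3 and Shank3 (background 1.58%). In pool C 5 genes had at least 3, Shank1 and Shank2 being added (background 1.98%), and in pool D 3 did (1.36%). The scaffold genes run up to 1972576 bp, and gene length and the number of annotated start sites were not allowed for in these comparisons.

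**Figure D3:**
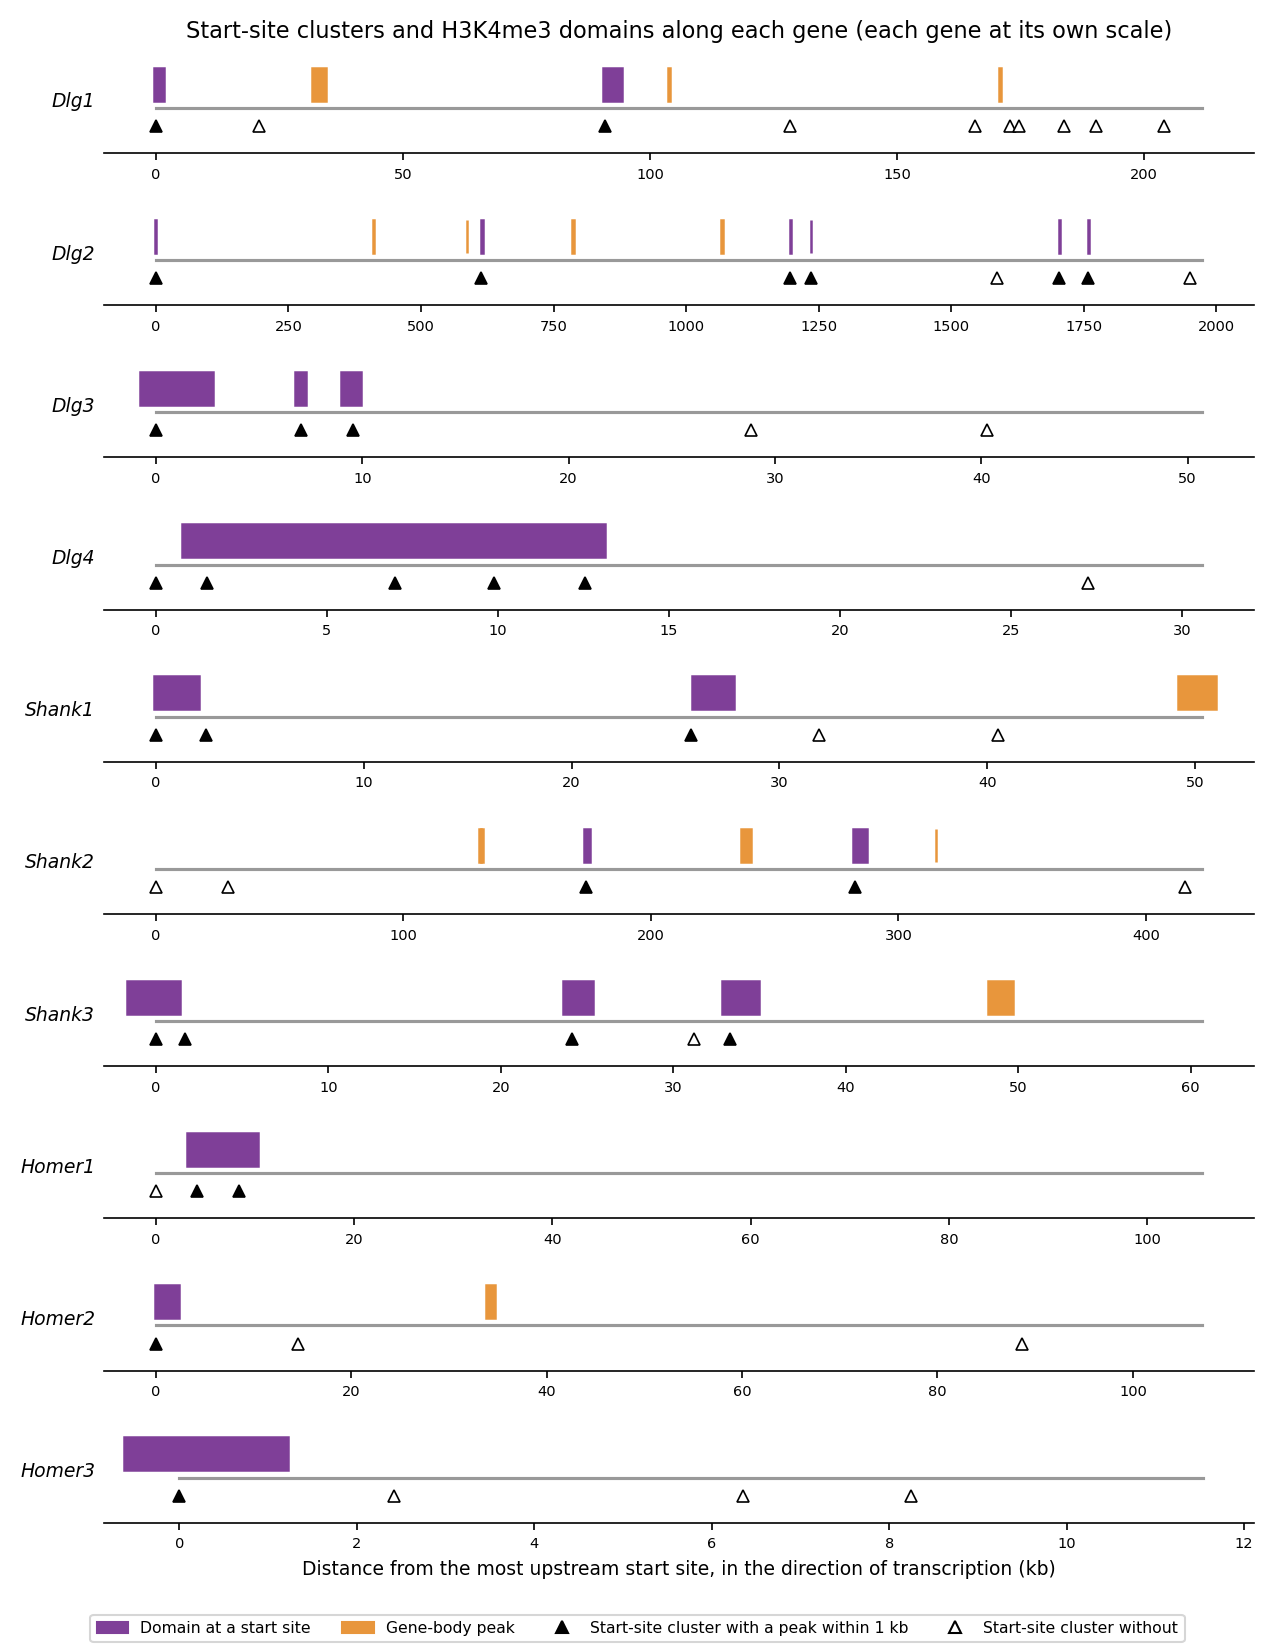
Start-site clusters (triangles, filled where a peak lay within 1 kb) and H3K4me3 domains of the replicated list along each scaffold gene, by distance from its most upstream start site in the direction of transcription (kb, each gene at its own scale); purple boxes are domains at a start site, orange boxes are gene-body peaks away from the gene's own start sites. Dlg2 has 6 domains spread over the gene, Dlg4 has 1 domain, joined from 4 peaks, and the first clusters of Shank2 and Homer1 are unmarked.

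Domains reached further into the gene than upstream of it in most cases. Of the 20 domains with a start site of their own gene inside, 16 were longer downstream of the most upstream such site (background 85.0%), with medians of 1701.5 bp downstream and 538.5 bp upstream. The medians over all 15316 such domains were 1407 bp and 623 bp, so the share longer downstream was near that of all genes. The exceptions were the most upstream domains of Dlg2 and Shank3, which reached 1762 and 1675 bp upstream, and both internal domains of Dlg3.

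Peaks inside the gene body, away from the gene's own start sites and domains, were found at 6 of the 10 scaffold genes (background 13.7%). This background is over all protein-coding genes, marked or not, and gene length was not allowed for. There were 14 such peaks in the replicated list: 4 at Dlg2, 4 at Shank2, 3 at Dlg1 and 1 each at Shank1, Shank3 and Homer2. Of the 14, 11 met a peak in both pools, and the other 3 (2 at Dlg1 and 1 at Shank2) met a peak in pool C alone. The weakest were a Dlg1 peak of 341 bp and the Homer2 peak, with signals of 2.14 and 2.83. These exceeded only 0.373% and 4.43% of replicated peaks. In the replicated list the strongest were 2 intronic Dlg2 peaks of 3063 and 3323 bp (chromosome 7, 91261790 to 91264852 and 91542307 to 91545629), with signal values of 18.5 and 18.3. That order did not hold in the pools: in pool C they had 13.4 and 25.3, against 20.9 at the Shank1 peak, and in pool D 16.2 and 13.7, against 13.8 at the Shank1 peak. These values are close to the 18.4 at the best Dlg2 start site in that list, and the peaks lie 18.8 and 18.7 kb from any annotated start site of another gene. Another Dlg2 peak (chromosome 7, 90886561 to 90888852) held a start site of Gm45159, a long non-coding RNA.

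Of the other gene-body peaks, 1 stood at a start site that another annotation holds. The Dlg1 peak of 2856 bp (chromosome 16, 31695113 to 31697968) covered a RefSeq start site of Dlg1 at position 31695548, which lies 11282 bp from the nearest GENCODE start site of the gene. Its signal of 10.7 was lower than at both marked GENCODE clusters of Dlg1 in the replicated list, while in pool D its 8.65 was above the 8 at the 90.9 kb cluster. The RefSeq window there (chr16:31695298-31695597, plus strand, GRCm38.p6) is printed with CpG dinucleotides in capitals, since it shows a marked start with only 4 of them.
Dlg1 RefSeq start: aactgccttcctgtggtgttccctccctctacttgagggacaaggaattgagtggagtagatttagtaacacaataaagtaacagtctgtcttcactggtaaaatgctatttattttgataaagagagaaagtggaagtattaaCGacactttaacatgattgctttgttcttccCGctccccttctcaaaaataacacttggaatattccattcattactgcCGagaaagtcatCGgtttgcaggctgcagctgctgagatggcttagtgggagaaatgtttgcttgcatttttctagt
Shank2 had a pair of adjacent intronic peaks of 843 and 649 bp at 131.1 and 131.8 kb and a peak of 3896 bp at 237.1 kb, none within 1 kb of an annotated start site of any gene. The Shank1 peak of 1841 bp (chromosome 7, 44359427 to 44361267) ran past the 3′ end of the gene, and its nearest other start site, of the antisense RNA Gm44780, lay 1.3 kb away. The Shank3 peak of 1451 bp lay over an exon at 49.0 kb, with a signal of 3.92.

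Marked start-site clusters of the scaffold genes held more CpG dinucleotides than unmarked ones, with overlap. Within 500 bp of the first start site of a cluster, the 29 marked clusters had a median of 33 CpG dinucleotides (range 10 to 123) and the 25 unmarked ones a median of 14 (5 to 30). Over all protein-coding genes the medians were 56 at marked and 11 at unmarked clusters. Shank3 held the extremes, with 123 at its first cluster and 120 at the one at 24.1 kb, and Homer1 had 103 at its coding cluster. Marked clusters with few CpG dinucleotides were found at Dlg4 (10 at the most upstream cluster), Shank3 (10 at 1.7 kb), Homer1 (12 at 8.4 kb), Dlg2 (12 at 1758.3 kb and 15 at 1234.7 kb) and Dlg1 (15 at 90.9 kb). At the Dlg4, Shank3 and Homer1 clusters the summit of the domain lay over 1 kb away, and at the Dlg2 and Dlg1 clusters it lay within 1 kb. No test was made, since several clusters come from 1 gene and some of these share a domain.

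**Figure D4:**
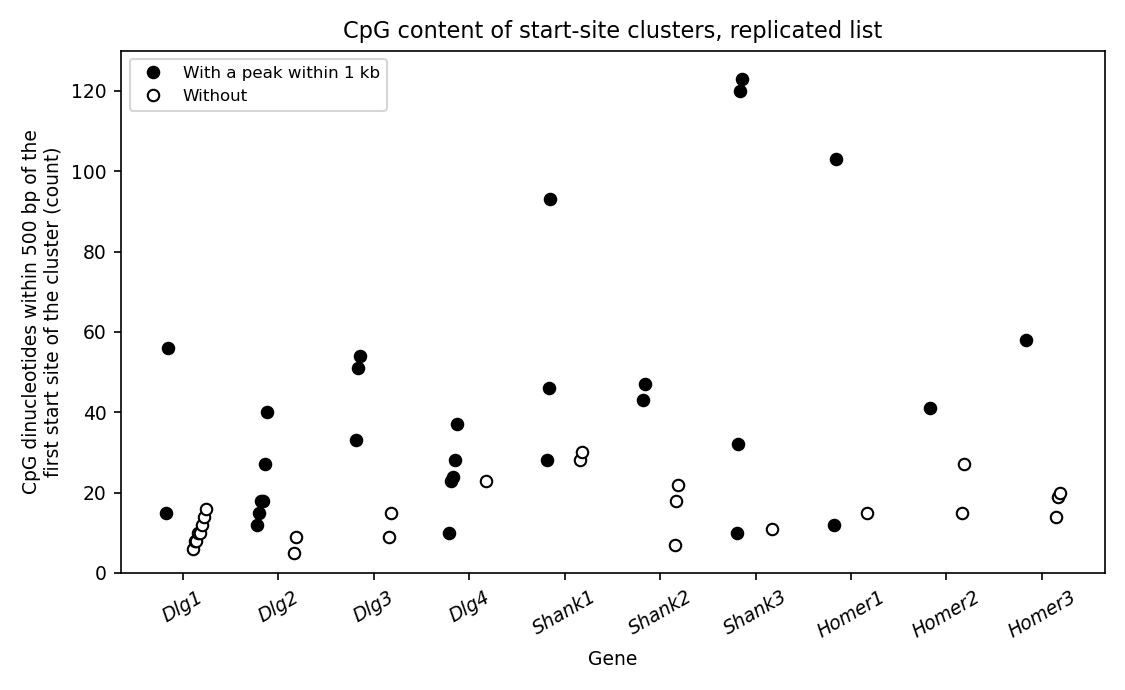
CpG dinucleotides within 500 bp of the first start site of each cluster (count, vertical axis) for the 10 scaffold genes (horizontal axis), with filled points for the 29 clusters that had a peak within 1 kb in the replicated list and open points for the 25 that had none. All clusters above 30 are marked, and Dlg2 and Dlg4 are among the genes with marked clusters below that count.

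RefSeq gave 18 promoter windows for 8 of the 10 genes, and 16 of them had a peak within 1 kb. The share of all RefSeq windows with such a peak was not computed, so this count has no background. The 2 scaffold gene windows without a peak were the Dlg2 and Homer2 windows printed above, and both held the TATA box letters TATAAA on one of the strands. The only other window with them was the marked Dlg1 window at 90.9 kb, so 3 of 18 held them (13.6% of all windows). The GC box GGGCGG stood in 7 of 18 windows (35.7% of all), with 8 copies in the marked Homer2 window, 5 in the Homer3 window and 4 in the Shank3 window. The CCAAT box CCAAT stood in 5 of 18 (37.4% of all), and the palindromic NRF1 motif in none (0.971% of all). Both strands were searched, and TGACG is part of the full element TGACGTCA.

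All 10 scaffold genes had their broadest domain wider in pool C than in pool D, as did 96.8% of all genes marked in both pools. The median log2 ratio of pool C to pool D was 0.20 for the 10 genes and 0.23 over all 14098 genes, so the scaffold genes followed the difference of the lists. It ranged over the genes down to 0.02 at Dlg4 and 0.05 at Homer1, and was highest at Dlg1 (0.34), Shank2 (0.31) and Shank1 (0.27). The Dlg4 ratio counts the closed gaps, and its peaks alone differed more, at 11422 bp in pool C and 9694 bp in pool D. Summed over all domains of a gene, Dlg2 covered 14942 bp in pool C and 10467 bp in pool D, a log2 ratio of 0.51, and Shank2 10951 and 7451 bp in the same order, a log2 ratio of 0.56. Unequal depth of the pools cannot be told apart from a difference in the mark.

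Other genes of the synaptic scaffold were as completely marked. Of 38 further genes, mostly of the postsynaptic density with 4 of the presynaptic active zone (Bsn, Pclo, Erc2 and Rims1), all 38 carried a peak in all 3 lists. The background was 65.5% in the replicated list, 66.9% in pool C and 64.3% in pool D. The number of start sites per gene was not allowed for in this comparison or in the breadths that follow. The median breadth of the 38 genes was 4334 bp, 36 of 38 lay above the median of all marked genes, and 14 had domains of at least 5 kb (background 6.96%). In pool C the median was 4699 bp and 17 genes had such domains (background 9.46%). In pool D the median was 3473 bp and 11 genes had them (background 4.76%). The broadest was at Baiap2, an actin regulator bound by Shank proteins, with 11784 bp, although it measured 12297 bp in pool C and 7552 bp in pool D. Broad domains were also found at Cnksr2 (8054 bp), which encodes a scaffold of Ras signalling, and at Dlgap3 (7619 bp), a link between Dlg and Shank proteins. Only Baiap2 of this list came near the 12349 bp of Dlg4.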

How the data were processed

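H3K4me3 peak lists of 2 pools of mouse hippocampus were used as deposited on build mm10. Pseudoreplicated lists exist for pool C, for pool D and for both together, beside the replicated list, per the labels; notes on each library name the alignments, which told the pool lists apart. The peak caller is not given in the sources used here. The signal value per peak, deposited by the authors, is an enrichment on their caller's scale. The −log10 q per peak was also deposited by the authors. The weakest replicated peak has a −log10 q of 0.26.

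Start sites were those of all transcripts of protein-coding genes in GENCODE M21 on GRCm38, the same assembly as mm10. Start sites of a gene within 1 kb formed a cluster. Windows were 1 kb on either side, the minimum overlap 1 bp and the closed gap 1 kb. The interval code was tested on simulated data. CpG content came from the genome sequence 500 bp on either side of a cluster's first start site. Analyses used Python 3.11.15. No test was run, since each pool gave 1 list. All 10 genes were named, with the 4 broadest of the related list, of which 1 is not reported here. Members, lists and alternatives were chosen with earlier results of these data known. The alternatives were the single-pool lists, the list on both pools together, a stricter threshold, other windows, gaps and start sites.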

Additional observations from a re-analysis of the deposited data

How the results depend on the processing

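All 10 scaffold genes stayed marked under every alternative run except the gene's 5′ end as sole start site, where 8 did; Shank2 and Homer1 then had no domain and no breadth. With that setting 8 clusters were marked in place of 29, since only 10 start sites were left, and the median breadth was 2554.5 bp in place of 3605 bp, because internal domains were left out. Leaving out a pool gave 29 to 31 marked clusters of 54 and a median of 3219 to 3892.5 bp. With the summit required in the window 25 clusters were marked, with windows of 2500 bp 32, and with a peak required over the start site itself, an alternative chosen after seeing the data, 24. Of 118 breadths of single genes under alternatives, 105 stayed within 1 SD over the pools. The 118 include the pool values that set this SD, and several settings returned the same domain. The count therefore does not measure how stable the breadths are. Only 2 of the 118 breadths moved by more than 1.5 times: Dlg4 with no gap closed (4716 bp) and Dlg1 at its 5′ end (2040 bp). With gaps of 3000 bp closed Dlg4 measured 15560 bp. The 38 related genes stayed marked except 37 with the summit in the window and 36 at the 5′ end. No paired analysis was possible because each pool gave 1 list and no test was made. Depth is unknown, which limits what the absence of a weak peak in pool D shows.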
